A study of Mus musculus with 8 samples.

Results

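Preadipocytes isolated from the subcutaneous fat of newborn mice were profiled on Affymetrix mouse expression arrays, and the 4 arrays of the control group, out of 8 arrays in the series, are described here by the abundance of their transcripts and by cell identity. The members were all arrays that carry the label control. The cells came from day 2 newborns of C57BL/6 background with the genotype Dicer lox/lox, in which both copies of the gene for the microRNA-processing enzyme Dicer are flanked by loxP sites. They had been transduced with an adenovirus that carries GFP, a green fluorescent protein, under the CMV promoter (Ad5CMVeGFP) and brings no Cre recombinase, at a multiplicity of infection of 750 and with 4 μg/mL polybrene, and RNA was extracted 4 days after infection. All 4 control arrays share the floxed alleles, the virus and growth in DMEM with fetal bovine serum, and cells without virus were not analysed here, so the part of virus or culture in any level cannot be told apart from that of the cell type. The labels call the arrays biological replicates and do not say whether they came from separate animals, litters or cultures, so the spread between them may be partly technical. One group is described and no groups are compared, so no test was made and errors are standard deviations (SD) over the 4 arrays.

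Preadipocytes are the fibroblast-like progenitors of fat cells and lie in the stroma of adipose tissue. They carry receptors for platelet-derived growth factor, secrete a collagen-rich matrix and keep Dlk1, an inhibitor of fat cell formation. On hormonal induction the factors C/EBPβ and C/EBPδ come first and are followed by PPARγ and C/EBPα, which switch on the genes of lipid storage.

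Each array holds 45037 probe sets beside its control spots, of which 34945 are assigned exactly 1 gene symbol, and a gene was represented by the brightest of these, giving 18193 genes. The signal is a linear intensity that the authors scaled to a common trimmed mean of 1500 per array. Probe sets differ in affinity, so a rank orders signals and not numbers of transcripts, and levels of different genes are not compared as amounts. A gene was called above background where its signal exceeded, on all 4 arrays, the 95th percentile of 59 genes specific to other organs such as liver, retina and testis. That level was 848.5 on array 1, 1059.6 on array 2, 1116.5 on array 3 and 1276.8 on array 4. By this rule 7368 genes, 40.5% of all genes, were above background, and this is the share against which each list is read. Leaving out probe sets of the s_at, x_at and a_at types, which can match several transcripts or genes, left 16591 genes and raised the background level, and 3275 genes (19.7%) then passed, so counts near the level depend on this choice and are read in that setting against 19.7%. The brightest 5 percent of genes (910 genes, 5.00%) had mean signals of at least 13110.0, while the median gene stood at 849.0. The ratio of 3′ to 5′ probe sets, a sign of RNA integrity, lay between 0.96 and 1.13 for Gapdh and between 1.66 and 2.06 for Actb on the control spots.

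The 6 genes taken as markers of the cells were above background on every array. Pdgfra, a receptor used as a marker of adipocyte progenitors in fat, had signals of 22613, 17230.5, 15736 and 14573 on arrays 1 to 4 (17538 ± 3554, rank 635). Pdgfrb, its paralog on stromal and mural cells, gave 28599.8, 18678, 25787 and 12061 (21281 ± 7431, rank 486). Both receptors were highest on array 1 and lowest on array 4. Dlk1, also called Pref-1, gave 72944, 44809, 50687 and 26167 (48652 ± 19275, rank 134), a 2.79-fold range with array 1 highest and array 4 lowest. Dcn, the small proteoglycan decorin that binds collagen fibrils, ran the opposite way, with 30043, 44888, 48131 and 89428 (53123 ± 25453, rank 109). Its 2.98-fold range placed array 4 highest and array 1 lowest. The level and order of Dcn rest on 1 probe set, since its other had a mean of 212.8, under the background level. The level of Dlk1 also rests on 1 probe set, its other having a mean of 722.6. That probe set of Dlk1 was likewise highest on array 1 and lowest on array 4. The collagen chains varied less than Pdgfrb, Dlk1 and Dcn. Col1a1, a chain of type I collagen, gave 62581, 48974, 73657 and 60363 (61394 ± 10118, rank 79), and Col3a1, the chain of type III collagen, gave 97572, 121360.0, 135536 and 157473 (127985 ± 25136, rank 9).

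**Figure D1:**
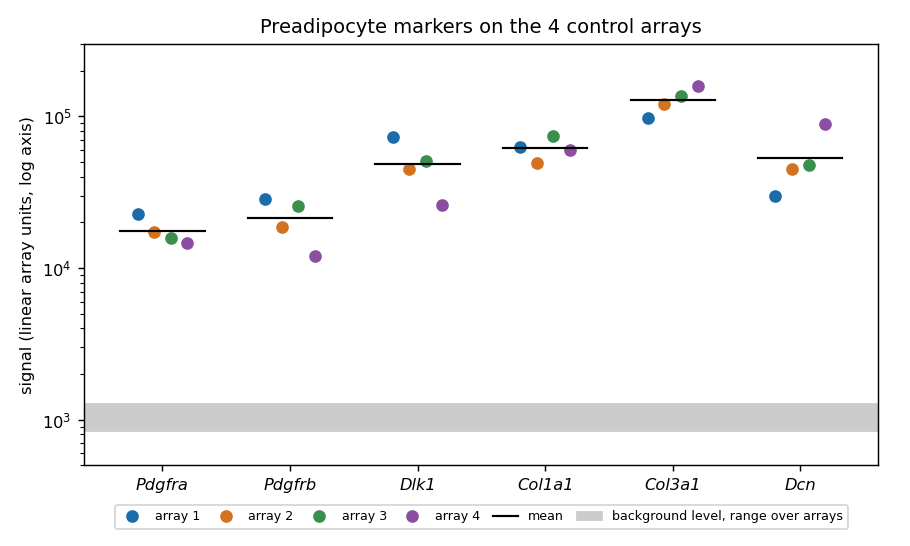
Signal of the 6 marker genes on each of the 4 control arrays (log axis, linear array units). Points are arrays, black bars are means of 4, and the grey band is the range of the background level over the arrays. All points lie above the band, and arrays 1 and 4 take opposite ends for Pdgfra, Pdgfrb, Dlk1 and Dcn, both as deposited and after quantile normalization.

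The wider stromal list lay among the brightest genes. All 17 measured members of 18 listed were above background, against 40.5% of all genes. Of the 17, 14 were among the brightest 5 percent, and the median member lay at the 99.3th percentile of all genes. The 18th, Ly6a, had no probe set with exactly 1 symbol in the annotation used here. No list of other fibroblasts was compared, so the stromal list cannot tell preadipocytes from other fibroblasts. Col1a2, the partner chain of Col1a1, ranked 14, the matrix protein Sparc ranked 16, periostin (Postn) ranked 18 and the intermediate filament vimentin (Vim) ranked 46. The matrix metalloprotease Mmp2 and the mesenchymal homeobox factor Prrx1 had mean signals of 58792 ± 17371 and 19138 ± 2485. The surface antigen Thy1 stood at 13968 ± 1501 and fibronectin (Fn1) at 39761 ± 12654. The 3 members outside the brightest 5 percent were Twist2, Lum and Cd34, with means of 8082 ± 995, 6421 ± 4114 and 6084 ± 1121. Cd34, an antigen used to isolate fat progenitors, gave 6192, 5937, 4736 and 7470.2 on arrays 1 to 4, lowest on array 3 and highest on array 4.

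Markers of the 11 other cell types of fat and skin were mostly at background. Of 132 measured genes on these lists, 16 (12.1%) were above background, against 40.5% of all genes. The erythroid, melanocyte, skeletal muscle, endothelium and brown fat lists had no member above background, out of 5, 6, 14, 14 and 12 measured. Their brightest members were Epor, the erythropoietin receptor, at 964 ± 171, the pigment protein gene Pmel at 691 ± 222, cardiac actin (Actc1) at 672 ± 171, the VEGF receptor Kdr at 1006 ± 200.5, and Ppargc1a, a coactivator of mitochondrial and thermogenic genes, at 1119 ± 389. Ppargc1a was over the background level on 3 of 4 arrays and Kdr on 1, while Epor, Pmel and Actc1 were over it on none. Defining markers, chosen here after their values were seen, were lower still. The endothelial junction gene Cdh5 gave 105, 90, 241 and 195 on arrays 1 to 4, and the leukocyte antigen Ptprc gave 91, 8.5, 138 and 103. The muscle factor Myf5 gave 10.7, 35.5, 4.1 and 1, and Ucp1, the uncoupling protein of brown fat, gave 23.4, 43.3, 60.9 and 65.9. All values of Cdh5, Ptprc, Myf5 and Ucp1 were under the background level.

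Leukocyte, epithelial and skeletal lists each had 1 member above background. By construction of the level, 3 of the 59 other-organ genes (5.1%) also passed, beside 5.3%, 7.1% and 10% of these 3 lists. With the probe sets that can match several genes left out, none of the 18 leukocyte, 11 epithelial and 9 skeletal genes passed. Cd68, a lysosomal glycoprotein that is abundant in macrophages, was the single member of 19 leukocyte genes to pass, with 882, 1076, 1749.8 and 1666, while Csf1r, the macrophage growth factor receptor, gave 695, 901, 588 and 1386 and was over the background level on 1 of 4 arrays. The summed signal of the whole leukocyte list lay between 5748 and 8129.9 over the arrays. In bulk RNA, a small number of such cells and a low level in every cell cannot be told apart. Krt10, a keratin of differentiating epidermis, was the member that passed of 14 epithelial genes, at 2285 ± 256. Epcam, on the same list, was over the background level on 3 of 4 arrays. Krt5 and Krt14, the keratins of the basal layer of the epidermis, gave means of 148 ± 102 and 233 ± 74.5. Sox9, a factor of cartilage and of other progenitors, was the member that passed of 10 skeletal genes, at 1994 ± 253. The cartilage collagen Col2a1 gave 748 ± 278.

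The pericyte and smooth muscle list was mixed, with 6 of 13 members above background (46.2%, near the 40.5% of all genes). With the probe sets that can match several genes left out, 1 of 12 passed, against 19.7% of all genes in that setting. Acta2 (smooth muscle actin) and Tagln (transgelin), contractile genes that cultured fibroblasts also express, had signals of 23499, 17715, 18899 and 14744 and of 17875, 12286, 13441 and 8907 on arrays 1 to 4. The level of Acta2 rests on 1 probe set of the s_at type, since its others had means of 147.4 and 96.3. Notch3, Mylk, Des and Cspg4 were above background at means of 2863 ± 707, 2652 ± 551, 1597 ± 482 and 1546 ± 325. The pericyte genes Rgs5, Kcnj8 and Abcc9 were under the background level on all arrays, with means of 333 ± 40.7, 50 ± 40.7 and 84.1 ± 10.7, as was Myh11, the myosin of mature smooth muscle, at 127 ± 124. On the Schwann and neural crest list 2 of 8 members passed (25%, against 40.5%), and 1 of 6 without those probe sets (16.7%, against 19.7%). These were Pmp22, a myelin protein that fibroblasts express as well, at 15551 ± 2941, and S100b at 1476 ± 482. Sox10, the factor that defines the lineage, gave 448, 884, 947 and 402 and was under the background level on every array.

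**Figure D2:**
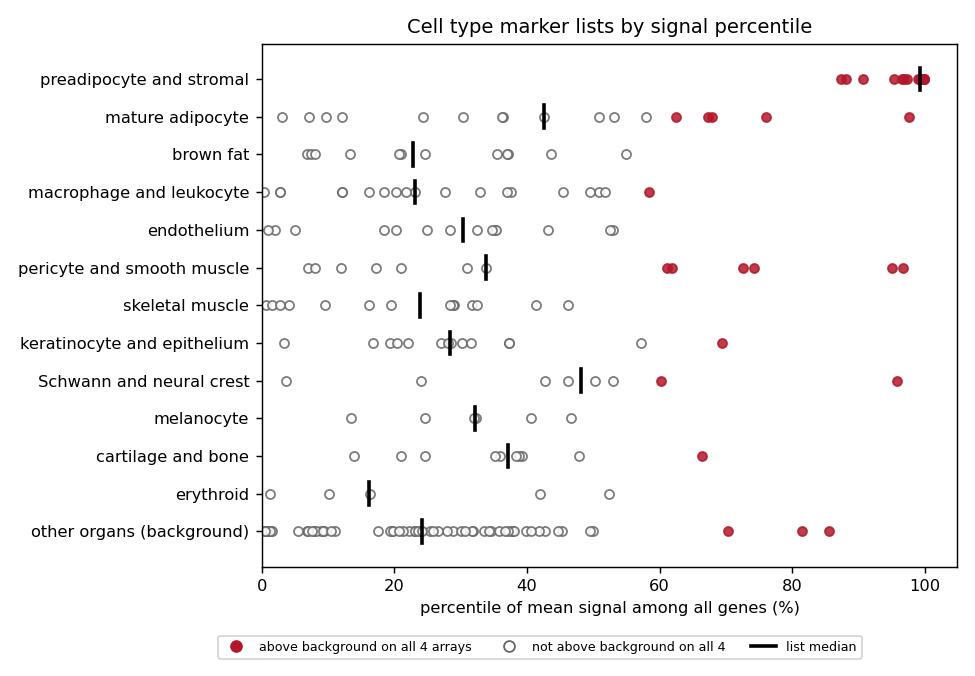
Percentile of mean signal among all genes (x axis, %) for each measured member of the cell type lists. Filled points are above background on all 4 arrays, open points are not, and black bars are list medians. The preadipocyte and stromal list sits at the right edge with a median of 99.3%, and the medians of the other lists lie between 16.2% (erythroid) and 48.2% (Schwann and neural crest).

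Genes of the mature fat cell were largely at background. Of 17 measured members, 5 were above it (29.4%, against 40.5% of all genes) and the median member lay at the 42.6th percentile. The exception in rank was Lpl, the lipase that frees fatty acids from lipoproteins and an early gene of adipogenesis, with 10574, 21832, 27167 and 34282 on arrays 1 to 4 (rank 429), array 1 lowest and array 4 highest. Fabp4, the fatty acid carrier of adipocytes, gave 2079.7, 3941, 3057 and 3493. The lipid droplet gene Plin4, the phospholipid acyltransferase Agpat2 and the triglyceride synthase Dgat2 were above background at 2129 ± 668, 2078 ± 429.6 and 1656 ± 156. The hormones of mature fat were not detected over the background level, with leptin (Lep) at 43, 105, 157 and 40.5 and adiponectin (Adipoq) at 98.6, 62, 31.3 and 81.6. The lipase Pnpla2 and the insulin-regulated glucose transporter Slc2a4 gave means of 1316 ± 219.9 and 1014 ± 182 and did not pass on all arrays. Cfd, Plin1 and Adrb3 had no probe set with exactly 1 symbol in the annotation used here. The summed signal of the list was 22226 on array 1, 37457 on array 2, 41815 on array 3 and 49340.2 on array 4, of which Lpl made up the larger part on array 4. Without the probe sets that can match several genes 1 of 17 members passed, against 19.7% of all genes in that setting.

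Most factors that promote or oppose adipogenesis were above background, while its central switch, Pparg, was under the level used here. Of 21 adipogenic transcription factors, a list that holds activators and inhibitors, 14 were above background (66.7%, against 40.5% of all genes). Cebpb, which acts in the first hours of differentiation, gave 18202, 27636, 30150.5 and 34466 on arrays 1 to 4 (rank 326), and Ddit3 (CHOP), a C/EBP relative that blocks C/EBPβ and marks stress of the endoplasmic reticulum, gave 6689.9, 19677, 17436 and 19224. Both were lowest on array 1. Klf4, an activator of Cebpb, gave 6877, 12994, 13435 and 17170.3, with the same array lowest. Cebpd gave 11494, 7385, 6739.6 and 6934 and was highest on array 1. Pparg, the master regulator of fat cells, gave 499, 652, 925 and 885 and was over the background level on 0 of 4 arrays. This call depends on the level, since the same signals were over the 90th percentile of the other-organ genes on 3 arrays and over the median of all probe sets on all 4. Cebpa, its partner in the mature cell, passed at 1679 ± 317. The inhibitors of adipogenesis Nr2f2 (COUP-TFII), Gata2 and Klf2 were above background at 5402 ± 1394, 1909 ± 188 and 2984 ± 321, and Gata3 was at 24.7 ± 8.4. Zfp521, which opposes fat cell commitment, gave 8291, 8288, 7925 and 7399, and its relative Zfp423, which marks committed preadipocytes, gave 229.8, 109, 321 and 413, under the background level on all arrays. The early B cell factor Ebf1 stood at 4856 ± 1141 and Ebf2, a factor of brown and beige progenitors, at 1261 ± 232, the latter above the level on 3 of 4 arrays. The glucocorticoid receptor Nr3c1, target of the dexamethasone used to induce differentiation, stood at 6436 ± 590.2, and Creb1, the factor that answers cAMP, at 2706 ± 271. Srebf1, a regulator of lipid synthesis, and Rxra, the partner receptor of PPARγ, were above background at 4112 ± 386 and 3420.4 ± 665. Klf5, Klf15 and Stat5a did not pass on all arrays, with means of 1406 ± 604, 589 ± 43.8 and 1215 ± 113.

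Most of the brightest signals came from genes of the ribosome and the secreted matrix. The highest mean signal of all belonged to Lgals1, the sugar-binding protein galectin-1, at 170652 ± 18599. Among the 30 brightest genes, whose means were at least 95929.8, 16 had names of ribosomal proteins (Rpl or Rps) and 5 were collagens or matrix glycoproteins. Besides these stood the ferritin heavy chain Fth1 (rank 4), the class I light chain B2m (rank 6), the elongation factor Eef1a1 (rank 7), the nucleosome-binding protein Hmgn1 (rank 15) and the antiviral membrane protein Ifitm3 (rank 22). Of the 16 genes with ribosomal names, 14 were on the list of ribosomal proteins used here. All of the 16 but Rplp0, Rpsa and Rpl19 were read by probe sets of the s_at, x_at or a_at types, which can match several transcripts or genes. In all, 78 genes were among the 100 brightest of each array. Ptn, the growth factor pleiotrophin, ranked 3 with 129773, 146383, 134548 and 171420.2 on arrays 1 to 4. Array 4 held the highest value for 26 of the 30 genes as deposited but for 8 after quantile normalization, so the order of the arrays among the brightest genes depended on the scaling.

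In some of the 30 the other probe sets of the gene disagreed. Pik3cd, the catalytic subunit of a phosphoinositide kinase best known from leukocytes, ranked 10 at 127906 ± 26606 through 1 probe set, while its other 5 probe sets had means of 71.9 to 360.7. Tpt1, Rpsa and Rps4x were each represented by a very bright probe set beside another whose mean was 58.5, 152.9 and 20.1. Which probe set reports the gene was not tested, so the rank of these 4 genes rests on 1 probe set. For Lgals1 the second probe set had a mean of 105320.2 and for Rps28 the second had 102860.1, by which they would rank 21 and 23, so their exact ranks rest on the brightest probe set while both would stay among the 30 brightest.

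Genes of protein synthesis filled the top of the order as lists. Of 72 ribosomal proteins listed, 41 were measured, the others having no probe set with exactly 1 symbol in the annotation used here. Of the 41, 37 were above background (90.2%, against 40.5% of all genes) and 33 were among the brightest 5 percent. Rps29, Rps28, Rpl38, Rplp0 and Rps20 led. Rps16, Rpl12, Rpl39 and Rps27 did not pass, and Rps16 gave 9, 14, 6.7 and 12.9 on arrays 1 to 4, a value near the bottom of the scale for a subunit that each ribosome carries. Without the probe sets that can match several genes 10 of 22 (45.5%) passed, against 19.7% of all genes in that setting, with a median member at the 66.4th percentile. All 18 translation factors were above background, 17 of them in the brightest 5 percent, led by Eef1a1, Tpt1, the poly(A)-binding protein Pabpc1, Eif4g2 and Eif5a. Of the endoplasmic reticulum genes, 23 of 24 were above background (95.8%, against 40.5% of all genes). Hsp90b1, a chaperone of secreted proteins, gave 69839 ± 11666, the collagen chaperone Serpinh1 (HSP47) 53137 ± 10842, and the retrieval receptor Kdelr2 51089 ± 7080.1. Hspa5 (BiP) and Ppib, the cyclophilin that folds collagen, stood at 44986 ± 5535 and 50988 ± 4863, and the cargo receptor Tmed2 was the member that did not pass, at 96.8 ± 44.8.

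Energy and structural genes also had high shares above background. The respiratory chain had 26 of 27 members above background (96.3%, against 40.5% of all genes) and a median member at the 98th percentile. The cytochrome oxidase subunits Cox7a2, Cox6a1 and Cox6c and the subunits Uqcrb and Ndufa1 led, and Cox7c did not pass, at 365 ± 244. Of the glycolysis genes, 9 of 11 passed (81.8%, against 40.5% of all genes). Ldha at 28766 ± 2314, Pgk1 at 26784 ± 1413 and Aldoa at 26341 ± 1566 led, followed by Tpi1 and Pkm. The hexokinase Hk2 and the phosphofructokinase Pfkp did not pass, at 1539 ± 477 and 1129 ± 236. Without the probe sets that can match several genes 3 of 6 glycolysis genes (50%) passed, against 19.7% of all genes in that setting. The median member then lay at the 73.1th percentile. The cytoskeleton and calcium-binding list had 28 of 29 members above background (96.6%, against 40.5% of all genes) and 24 in the brightest 5 percent. Lgals1, the actin-sequestering peptide Tmsb10, Tuba1a, Actb and S100a6 came first, and the myosin light chain Myl6 did not pass. The low values of Myl6, Cox7c, Tmed2 and the ribosomal proteins that did not pass are those of probe sets with exactly 1 symbol. Whether a probe set left out for having several symbols reports these genes was not tested. All 17 genes of iron, metal and antioxidant handling were above background. Fth1, which stores iron, led, followed by thioredoxin (Txn1), the metallothionein Mt1, Sod1 and Gpx4, and Mt1 gave 26077, 39823, 47765 and 49416 with array 1 lowest.

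The secreted matrix of these cells was broad. Of 21 collagen genes 20 were above background, against 40.5% of all genes, and 9 were in the brightest 5 percent. After the type I and III chains came Col5a2, a chain of the fibril-nucleating type V, at 46928, 48892, 58199 and 53407 on arrays 1 to 4, and Col6a1, a chain of the beaded filaments of type VI, at 45551, 37348, 47393 and 38514. Col4a6, a basement membrane chain, was the member that did not pass, at 589 ± 193. All 27 matrix glycoproteins were above background and 12 were in the brightest 5 percent. Sparc, Postn and the follistatin-like protein Fstl1 were brightest, at 118977 ± 8799, 116373 ± 13144 and 103937 ± 11953, followed by thrombospondin 2 (Thbs2) at 43130.1 ± 6487 and fibulin 2 (Fbln2) at 41093 ± 11063. Elastin (Eln) was the dimmest of the list at 1847 ± 421, a gene chosen here after its value was seen. Fbn1 and Efemp2 had no probe set with exactly 1 symbol in the annotation used here.

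Proteoglycans passed in 13 of 17 cases (76.5%, against 40.5% of all genes). Biglycan (Bgn) led at 82471, 79197, 98827 and 73726 on arrays 1 to 4 and was followed by Dcn, osteoglycin (Ogn) at 25344 ± 2481, and the syndecans Sdc1 at 15025 ± 3239.7 and Sdc2 at 11236 ± 1395. Omd, Fmod, Gpc3 and Prg4 did not pass, at means of 1459.7 ± 477, 1015 ± 564, 355 ± 49.3 and 351 ± 154. The enzymes that process and crosslink collagen passed in 14 of 15 cases (93.3%, against 40.5% of all genes). P3h1 was not above the level on all arrays, at 1176 ± 101. Pcolce, the enhancer of procollagen cleavage, gave 86138, 79985, 95235 and 86753, and lysyl oxidase (Lox), which crosslinks collagen and elastin, gave 75195, 61215, 71557 and 73225. Serpinh1, Ppib and P4hb, a subunit of prolyl hydroxylase, came next.

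Matrix proteases and their inhibitors were present together, with 17 of 23 above background (73.9%, against 40.5% of all genes) and 10 in the brightest 5 percent. The secreted inhibitor-like serpin Serpinf1 (PEDF) gave 56370.5, 55869, 65870.4 and 57622 on arrays 1 to 4. Mmp2, the gelatinase that cleaves denatured and basement membrane collagen, gave 35908, 55351, 75368 and 68539, and Mmp14, the membrane protease that activates it, gave 27858, 38774, 54133 and 41483. Both metalloproteases were lowest on array 1 and highest on array 3. The lysosomal cathepsins Ctsl and Ctsb stood at 39992 ± 2618 and 35628 ± 5140.4. The members that did not pass were Mmp3, Mmp9, Mmp10, Mmp13, Plau and Timp4, and of these Mmp3 and Mmp9 were over the background level on 3 of 4 arrays, with 4832, 3616, 1882 and 1058 and with 1565, 1100.2, 1218 and 554, and the other four on none.

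Secreted ligands passed less evenly, with 25 of 38 above background (65.8%, against 40.5% of all genes) and a median member at the 69.9th percentile. Without the probe sets that can match several genes 9 of 34 (26.5%) passed, against 19.7% of all genes in that setting. After Ptn came Cxcl12, the chemokine that holds blood stem cells and leukocytes in stroma, at 72491, 61237, 62456 and 67787 on arrays 1 to 4. Ccn1 (Cyr61), a matricellular protein, gave 30139.9, 11028, 26534 and 12898, with arrays 1 and 3 above arrays 2 and 4. Gas6, the ligand of the receptor Axl, gave 9434, 12606, 15153 and 21958, lowest on array 1 and highest on array 4, and Fgf7, a growth factor for epithelium, gave 11622, 12724, 12209 and 14998. The chemokines as a list had 8 of 16 members above background (50%, against 40.5% of all genes), among them the monocyte attractants Ccl2 at 18386, 12582, 12150.0 and 9214 and Ccl7 at 5897, 6877, 7473 and 6228, the interferon-induced Cxcl10 at 10301, 11719, 9688 and 9985, and Ccl5 at 4952, 6708, 5677 and 7891.

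Receptors passed in 24 of 29 cases (82.8%, against 40.5% of all genes). Tgfbr2, the type II receptor for TGF-β, gave 37486, 34527, 40428 and 34593 on arrays 1 to 4 and was steady, while its co-receptor Tgfbr3 gave 15800.3, 13329, 20203 and 12327. Ghr, the growth hormone receptor, gave 13881, 15693, 17965 and 22436, with array 4 highest, the opposite of the PDGF receptors. Ptgfr, Met, Insr, Fgfr3 and Lepr did not pass. Insr, the insulin receptor, gave 1061, 827, 1231 and 576 and was over the background level on 2 of 4 arrays, and Lepr, the leptin receptor, gave 343, 417, 525 and 647 and was over it on 0. IGF-binding proteins, which hold insulin-like growth factors outside the cell, passed in 4 of 7 cases (57.1%, against 40.5% of all genes). Igfbp7 gave 50992, 41114, 48477 and 42153, Igfbp4 gave 12746, 12169, 10146 and 11079 and Igfbp6 gave 5164, 3871, 3704 and 7453, all above background. Igfbp3, the main carrier in serum, gave 7335, 7106, 7034 and 1738, with array 4 far below the other arrays. Igfbp5, Igfbp2 and Igfbp1 did not pass, at means of 1315 ± 527, 515 ± 162 and 63.8 ± 70.4.

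Stromal surface antigens passed in 16 of 21 cases (76.2%, against 40.5% of all genes). The tetraspanin Cd81 led with 26281, 35223, 31329 and 46106 on arrays 1 to 4. F3, tissue factor, which starts the extrinsic pathway of clotting and marks a regulatory stromal population of adult fat, gave 26422, 34697, 39527 and 33517. The integrin chain Itgav and the interferon-induced antigen Bst2 stood at 23242 ± 2203 and 22534 ± 4717. Alcam, Anpep, Cd24a, Nt5e and Dpp4 did not pass. Dpp4, the marker of interstitial progenitors in mouse subcutaneous fat, gave 244, 59.6, 311 and 48.4, under the background level on all arrays, and Cd24a, a marker of early fat progenitors, gave 1565, 347, 348 and 113, over it on 1 of 4 arrays. Icam1, a marker of committed preadipocytes that was chosen here after its value was seen, gave 2221, 2332, 1912 and 2050.4.

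Mesenchymal and positional transcription factors passed in 17 of 34 cases (50%, against 40.5% of all genes). Snai2 (Slug), a repressor of the epithelial state, gave 25129.5, 27440.5, 27043 and 27446 on arrays 1 to 4. Prrx1 gave 22722, 17896, 18804 and 17130.4, Tcf4 (E2-2) gave 15554, 12306, 14729 and 8516, Twist1 gave 8275, 9049, 8863 and 8025 and Twist2 gave 6746, 8147, 9149 and 8286. Of these 5 factors Tcf4 had the widest range, a 1.83-fold one with array 4 lowest. Tbx15, a T-box factor known for differing between fat depots, gave 4469, 4775, 4853 and 4918, and the limb factors Tbx4 and Tbx5 gave 163, 172, 51.3 and 13.7 and 539, 39.7, 94.8 and 66.8, which lay under the background level. Wt1, a mesothelial gene tied to visceral fat, gave 94.8, 20.4, 31.4 and 79. These 4 genes fall outside the naming rule and were chosen after their values were seen.

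The Hox genes, whose order along each cluster follows the body axis from head to tail, gave a restricted pattern. Of 33 measured genes 9 were above background, a lower share than the 40.5% of all genes, and none was among the brightest 5 percent. In the Hoxc cluster 4 of 7 passed. Hoxc6 gave 2636, 2973, 2637 and 2488 on arrays 1 to 4, Hoxc8 gave 6390.3, 5511, 4314 and 3482, Hoxc9 gave 4689, 4353, 3487 and 3333 and Hoxc10 gave 5087, 5222, 4628 and 5595. Hoxc4, Hoxc5 and Hoxc13, toward the 2 ends, did not pass, with means of 582 ± 366, 355 ± 78.5 and 1129 ± 428. In the Hoxb cluster 3 of 9 passed, Hoxb2 with 1763, 2008, 1861 and 1830.4, Hoxb3 with 3314, 2384, 2168 and 1395 and Hoxb9 with 3808, 3387, 2333 and 1465. Hoxb3 and Hoxb9 were lowest on array 4. Hoxb4 and Hoxb6 were over the background level on 1 and 2 arrays, and Hoxb1, Hoxb5, Hoxb7 and Hoxb13 on none. In the Hoxa cluster 1 of 9 passed, Hoxa10 with 1032, 1314, 1462 and 2733, array 4 highest. Hoxa3, Hoxa5 and Hoxa9 were over the level on 2, 3 and 3 arrays, and Hoxa2, Hoxa4, Hoxa7, Hoxa11 and Hoxa13 on none. In the Hoxd cluster 1 of 8 passed, Hoxd8 with 1656, 2242, 1955 and 1746. Hoxd1, Hoxd3, Hoxd9, Hoxd10, Hoxd11, Hoxd12 and Hoxd13 were under the level on every array. Without the probe sets that can match several genes 3 of 32 Hox genes (9.4%) passed, against 19.7% of all genes in that setting.

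**Figure D3:**
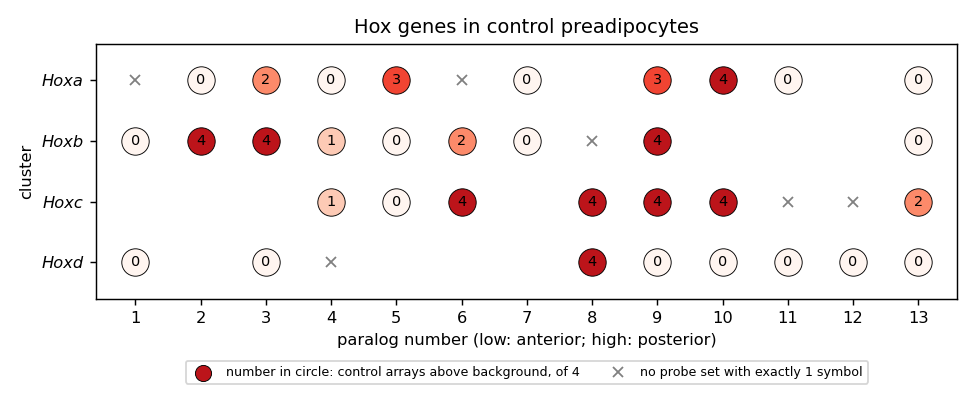
Hox genes by cluster (rows) and paralog number (x axis, low numbers anterior and high numbers posterior). The number and shade of a circle give how many of the 4 control arrays were above the background level, and a cross marks a gene with no probe set of exactly 1 symbol. The 9 genes above background on all 4 arrays are Hoxa10, Hoxb2, Hoxb3, Hoxb9, Hoxc6, Hoxc8, Hoxc9, Hoxc10 and Hoxd8.

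Imprinted genes are expressed from 1 parental copy, at least in some tissues or for some transcripts, and many act on fetal growth. The arrays do not tell the parental copies apart. They passed in 13 of 22 cases (59.1%, against 40.5% of all genes), with a median member at the 90th percentile. After Dlk1, Gnas, the G protein that raises cAMP, gave 44492, 44842, 44479.6 and 52864 on arrays 1 to 4, and Plagl1 (Zac1), a zinc finger factor, gave 43445, 22821, 21158 and 13550.1. Ndn (necdin), which restrains adipogenesis, gave 19316, 16654, 13461 and 12087, and Impact gave 12272, 12065, 12389.8 and 11855. Plagl1 and Ndn were highest on array 1 and lowest on array 4, the order seen for Dlk1, while Impact differed little between arrays. Plagl1 was read by 1 probe set of the x_at type. Its other probe sets had means of 471.6 and 317.1, so the level and order of Plagl1 rest on 1 probe set. Gnas too was read by 1 probe set, of the s_at type, its others having means of 25.0 to 525.4. Meg3, the noncoding transcript of the Dlk1 domain, is among the genes that varied most between arrays. Without the probe sets that can match several genes 8 of 20 (40%) passed, against 19.7% of all genes in that setting, and the median member lay at the 53.9th percentile.

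Of the genes of the cell cycle and its inhibitors, 29 of 30 were above background (96.7%, against 40.5% of all genes). The median member lay at the 90.7th percentile. The exception was the thymidylate synthase gene Tyms, at 682 ± 65.8 by probe sets with exactly 1 symbol. Whether a probe set left out for having several symbols reports Tyms was not tested. The brightest member was Cdkn2a, the locus of the inhibitors Ink4a and Arf, with 51243, 43253, 49382 and 61423 on arrays 1 to 4 (rank 121). Pcna, the sliding clamp of DNA polymerase, gave 41154, 40367, 38489 and 46737. Cdkn1a, an inhibitor of cyclin-dependent kinases, gave 15074, 47045, 34235 and 54173, with array 1 lowest by a wide gap. The helicase subunits Mcm7 and Mcm4 gave 26855, 30365, 25275 and 25474 and 22716, 24059.9, 24659 and 23823. Both inhibitors of the cycle and parts of the replication machinery therefore stood in the brightest 5 percent of the same cultures.

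Promoters of the cell cycle list were examined because its members act together and many such genes are known to carry CCAAT boxes, the site of the factor NF-Y. The 250 bases before the annotated start were read from RefSeq (GRCm38.p6) for genes with 1 entry, and 3 motifs were searched on both strands. These were the letters CCAAT of the CCAAT box, the letters TATAAA of the TATA box and the letters GGGCGG of the GC box, the site of the factor Sp1. A GGGCGG match can share letters with a CCAAT match on the other strand. Of 21 cell cycle promoters, 17 (81.0%) held CCAAT, against 36.1% of the 11791 measured genes with such a promoter, and none held TATAAA, against 9.3%. GGGCGG was in 17 of them (81.0%), against 50.3% of measured genes. The promoters printed are those of the cell cycle list with most CCAAT matches, Top2a with 6, and Ccnb2 and Cdk1 with 3 each. Mcm3 and Mki67 also have 3. Printed as a contrast is Col3a1, which has TATAAA and neither of the others. Col3a1 is not typical of the collagen list. Of 15 collagen promoters, 1 (6.7%) held TATAAA, 7 (46.7%) held CCAAT and 10 (66.7%) held GGGCGG. Capitals mark matches on either strand, so that a match on the other strand appears as its reverse complement, and each sequence runs 5′ to 3′ on the strand of its gene.
Top2a promoter, chr11:99024190-99024439, minus strand: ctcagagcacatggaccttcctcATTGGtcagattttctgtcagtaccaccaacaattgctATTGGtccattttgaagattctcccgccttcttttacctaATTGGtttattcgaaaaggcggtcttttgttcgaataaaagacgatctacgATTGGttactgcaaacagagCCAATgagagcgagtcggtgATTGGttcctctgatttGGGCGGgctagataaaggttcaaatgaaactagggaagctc
Ccnb2 promoter, chr9:70421555-70421804, minus strand: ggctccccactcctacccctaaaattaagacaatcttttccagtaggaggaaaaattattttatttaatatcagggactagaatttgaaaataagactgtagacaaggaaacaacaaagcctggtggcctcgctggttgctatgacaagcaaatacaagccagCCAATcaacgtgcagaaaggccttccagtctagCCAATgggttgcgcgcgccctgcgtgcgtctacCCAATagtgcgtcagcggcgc
Cdk1 promoter, chr10:69352913-69353162, minus strand: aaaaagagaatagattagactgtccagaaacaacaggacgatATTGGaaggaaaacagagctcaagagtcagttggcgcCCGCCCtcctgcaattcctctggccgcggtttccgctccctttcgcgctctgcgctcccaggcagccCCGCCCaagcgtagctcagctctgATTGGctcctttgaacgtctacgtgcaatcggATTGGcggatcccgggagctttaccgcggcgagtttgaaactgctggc
Col3a1 promoter, chr1:45311288-45311537, plus strand: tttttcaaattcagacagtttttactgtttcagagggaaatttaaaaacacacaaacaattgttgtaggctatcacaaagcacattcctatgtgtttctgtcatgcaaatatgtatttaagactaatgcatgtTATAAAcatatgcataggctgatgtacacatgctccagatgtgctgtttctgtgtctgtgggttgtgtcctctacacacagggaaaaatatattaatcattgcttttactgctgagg

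The genes behind these promoters were above background on all arrays. Top2a, the topoisomerase that untangles chromosomes, gave 11665, 11060.4, 10786 and 10307 on arrays 1 to 4. Cdk1, the kinase that drives mitosis, gave 13712, 12626, 11185 and 14959.7, and Ccnb2, a B-type cyclin that activates it, gave 5329.5, 4252, 4266 and 4614. These 3 genes fall outside the naming rule and were chosen for their promoters. Across all measured genes the motifs also differed with the level. GGGCGG was in 65.4% of 4803 promoters of genes above background and in 40.0% of 6988 of genes not above it, and TATAAA was in 5.8% and 11.6%. CCAAT differed less, at 37.5% and 35.2%. A match is a run of letters and not a known binding site, and base composition, which sets how often GGGCGG occurs by itself, was not held equal.

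Interferon-stimulated genes passed in 23 of 27 cases (85.2%, against 40.5% of all genes), with a median member at the 87.8th percentile. B2m, the light chain of MHC class I, gave 96431, 132826, 140017 and 166180.3 on arrays 1 to 4. The class I heavy chains H2-K1 and H2-D1 gave 20404, 33075, 32903 and 40693 and 17769, 27898, 32667 and 35989. All 3 class I genes were lowest on array 1 and, as deposited, highest on array 4, while after quantile normalization arrays 3 and 4 were equal for B2m. Ifi35 gave 25518, 30497, 23314 and 32315 and the antiviral protein Ifit1 gave 25437, 25523, 19833 and 26351, with array 3 lowest for both. Mx1, Mx2, Oas2 and Stat2 did not pass on all arrays, at means of 1125 ± 236, 531 ± 194, 1155 ± 670.1 and 964 ± 116. All 4 arrays come from cells that had received the adenovirus, and no array without it was analysed here.

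The machinery of microRNAs, which Dicer serves, passed in 10 of 13 cases (76.9%, against 40.5% of all genes), none in the brightest 5 percent. Drosha, which cuts the primary transcript, gave 6674, 6917, 7100.3 and 7533 on arrays 1 to 4, and its partner Dgcr8 gave 2391, 2406, 2377 and 1799.5. Dicer1 gave 1153, 1141, 2114 and 1190.3 and was over the background level on 3 of 4 arrays, with its partners Tarbp2 and Prkra at 2060.0 ± 155 and 4059 ± 681 and the exporter Xpo5 at 2277 ± 429.6. Among the Argonaute proteins, which hold the mature microRNA, Ago2 gave 7960.0, 5156, 8643 and 5312 and Ago1 gave 2016, 2158, 2654 and 2274, while Ago3 and Ago4 were under the background level at 613 ± 151 and 445 ± 37.6. The scaffold genes Tnrc6a, Tnrc6b and Tnrc6c were above it at 5507 ± 1199.7, 3337 ± 910.3 and 4153 ± 1167. Without the probe sets that can match several genes 1 of 13 of this list passed the higher background level of that setting, against 19.7% of all genes. Of the sex-linked genes 1 of 4 passed (25%, against 40.5% of all genes). The Y-linked Eif2s3y gave 1389, 1356, 1478 and 1448, above background on all arrays, Uty gave 895, 1016, 966 and 774 and Kdm5d gave 686, 282, 576 and 415. Xist, the transcript of the inactive X, gave 315, 736, 798 and 452, under the background level on every array. Eif2s3y differed little between arrays.

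The 4 arrays agreed closely but not equally. Over the 7368 genes above background the median SD of log2 signal was 0.192, with 0.092 at the 10th and 0.36 at the 90th percentile, and 206 genes (2.8%) had an SD over 0.5. Arrays 2 and 4 were closest, with 24 genes more than 1 log2 unit apart, and arrays 1 and 4 farthest, with 237 (3.22%). Array 1 held the highest value of 30% of these genes and the lowest of 30.5%, and array 4 the highest of 31.9% and the lowest of 25.7%. The signal of the 5′ probe set for 18S ribosomal RNA on the control spots was 11355.6, 30583.9, 5905.9 and 36375.2 on arrays 1 to 4. It was higher on arrays 2 and 4 than on arrays 1 and 3, and its part in the differences between arrays was not tested.

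The 15 genes with the largest spread included surface receptors, matrix proteins and noncoding transcripts. Ngfr, the low-affinity neurotrophin receptor, gave 1093, 4159, 4969.7 and 8603 on arrays 1 to 4 (SD 1.227 on the log2 scale), a 7.87-fold range. Lum, the collagen-binding proteoglycan lumican, gave 2386, 4844, 6375 and 12079, and Clec3b (tetranectin), a plasminogen-binding secreted protein, gave 1159, 3599, 2421 and 6263. These 3 genes, with the calcitonin receptor-like receptor Calcrl and the protease inhibitor-like Ctla2a, were lowest on array 1 and highest on array 4. Meg3 gave 15276, 4575, 11014 and 3619, the cyclin Ccnd1 gave 5106, 2057, 1426 and 1284, the sphingosine phosphate receptor S1pr3 gave 12345, 5179, 6192 and 2900.5, and the matrix protein tenascin C (Tnc) gave 20738, 9451, 16553 and 5698. These 4 were highest on array 1 and lowest on array 4. The nuclear transcript Malat1 gave 32885, 7440.4, 22760.2 and 16172, with array 2 lowest, and the inflammatory regulator Nfkbiz gave 5782, 2283, 5767 and 1702, with arrays 1 and 3 above arrays 2 and 4. Irak1, a kinase of interleukin 1 signalling, and Igfbp3 were low on array 4 alone, Irak1 by 1 probe set of the x_at type, and Chchd10 and Dhrs7 were low on array 1 alone. That probe set of Irak1 gave 8451, 7458, 6720.3 and 2139.6, while the next brightest gave 5489, 5718, 6682 and 5853, with array 4 not low, so the spread of this gene rests on 1 probe set. At the other end, Cald1 (caldesmon), Xaf1, Actb, Rps4x, Tmbim6, Cct2, Tubb6, Vim, Hif1a and the unnamed gene 2410006H16Rik had the smallest spread in the brightest 5 percent, with SDs of 0.015 to 0.038 on the log2 scale.

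**Figure D4:**
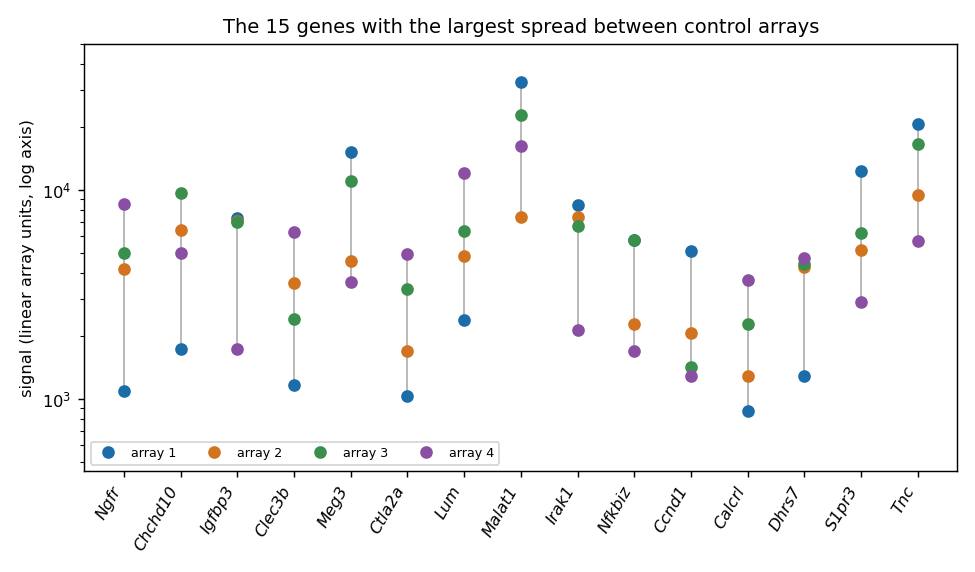
Signal on each control array (log axis, linear array units) of the 15 genes with the largest SD of log2 signal among genes above background. Points are arrays and grey lines span the 4 values. Arrays 1 and 4 are at opposite ends for 13 of the 15 genes, among them Ngfr, Lum, Meg3 and Tnc, and for 11 after quantile normalization. Among all genes above background the share is 29.8%, and the 15 were chosen for their spread, with arrays 1 and 4 the farthest pair.

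Whole lists also differed between arrays. The mean deviation of a list on an array was taken over its members above background, from each gene's own mean of the 4 log2 values. For the imprinted genes it was 0.36, -0.12, 0 and -0.24 on arrays 1 to 4, with 8 of 13 members highest on array 1. Receptors were lowest on array 4 in 18 of 24 members, with deviations of 0.22, -0.12, 0.20 and -0.30. Matrix glycoproteins gave 0.19, -0.20, 0.20 and -0.20, so that arrays 1 and 3 stood above arrays 2 and 4. Interferon-stimulated genes were lowest on array 1 in 15 of 23 members, with deviations of -0.26, 0.06, 0.01 and 0.20. The 5 adipocyte genes above background gave -0.42, 0.08, 0.04 and 0.30. The 3 other-organ genes that passed gave -0.43, 0.08, 0.13 and 0.22, a like lean, and the summed signal of all 59 was 18646, 27207, 28585 and 27439, also lowest on array 1. The part of such a shift in the adipocyte deviations was not tested. After quantile normalization the 5 lists of imprinted, receptor, matrix glycoprotein, interferon-stimulated and adipocyte genes kept the sign of every deviation that was not 0. Ribosomal proteins were highest on array 4 in 29 of 37 members, at 0.17, but after quantile normalization their deviation there was 0.02, and their deviation on array 1 changed sign from -0.07 to 0.01.

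**Figure D5:**
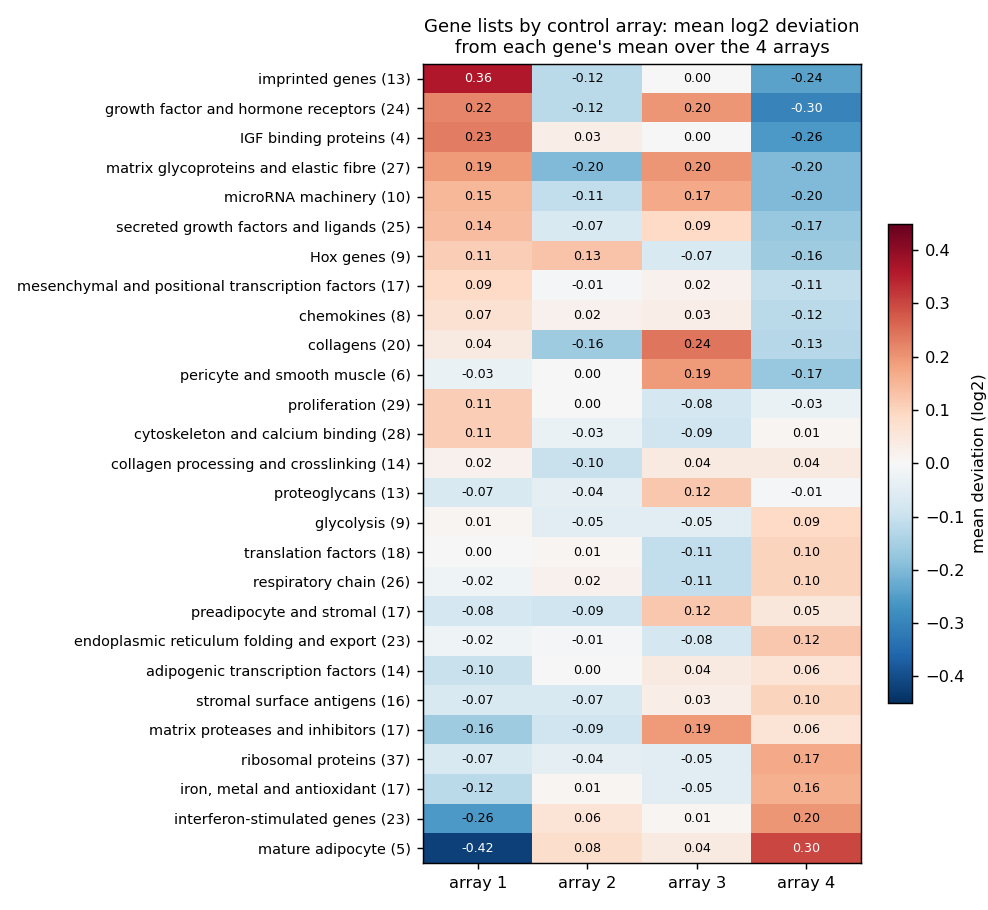
Mean deviation on each control array, in log2 units, of the members above background of each list (number in parentheses) from each gene's mean over the 4 arrays. Red is above and blue is below the mean. Lists are ordered by the difference between arrays 4 and 1, from imprinted genes at the top (0.36 on array 1) to mature adipocyte genes at the bottom (0.30 on array 4).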

How the data were processed

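RNA of the control cells was labelled with biotin and hybridised to 1 array per sample, per the labels' protocols. The values are linear signal intensity per probe set, deposited by the authors, who made them with MAS5 in GCOS 1.3 per the submitters' processing notes. Each deposited array has a trimmed mean of 1500 (2 percent trimmed at each end). The number of arrays, 4, limits the precision. Genes were named from the platform's annotation, which names no genome build, and 932 probe sets with several symbols and 9160 with none were left out. Of the 34945 probe sets used, 34741 matched a RefSeq gene (GRCm38.p6) and 0 symbols changed. Spread between arrays was computed on log2(signal + 73.0), the pseudocount being the 20th percentile of all values. Steps ran in Python 3.11.15 with pandas 2.3.3 and numpy 2.4.6 and were checked on simulated data. By the naming rule the genes are the 6 markers, the 30 brightest genes, the 5 brightest of each of 38 lists, members of other cell types above background, the 15 most and 10 least variable genes, and all Hox, IGF-binding protein, sex-linked, microRNA machinery and adipogenic factor genes. Of these, ribosomal proteins and members of other cell types at background are mostly given as counts. The arrays, the genes and the lists were chosen with earlier results of these data known. Other scalings, probe set choices, averages, background levels and left-out arrays were tried.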

Additional observations from a re-analysis of the deposited data

Results flagged for a closer look

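Among 291 genes named in the text, 16 had 1 array far from the other 3 (gap over range above 0.829), and chance alone flags about 1 in 20. On array 1 these were Cebpd, an early adipogenic factor, at 11494 and above the others, Cd24a at 1565, Tbx5 at 539, and, below the others, Dhrs7 at 1292 and Ago3 at 388. On array 2 Plau, the urokinase gene, stood apart at 636. On array 3 Dicer1 was high at 2114, Srebf1 at 4688 and Mx1 at 1478, and Ifit1 was low at 19833. On array 4 Igfbp3 was low at 1738 and Dgcr8 at 1799.5, and Gnas was high at 52864, Kdelr2 at 61598, Ppib at 58278 and Rps27 at 2016. Cd24a, Tbx5, Ago3, Dicer1, Mx1, Plau and Rps27 were not above background on all arrays.

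Signal also appeared in data that the gene lists do not use. Of 9160 probe sets with no gene symbol in the annotation, 499 (5.4%) were above the background level on all 4 control arrays.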

How the results depend on the processing

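The stromal list had 16 or 17 members above background under every setting tried. Genes above background, 7368 as reported, were between 7405 and 7873 when 1 array was left out and 3275 without probe sets ending in s_at, x_at or a_at, a setting with 42 in place of 59 background genes and a level of 1877.7 to 2863.0. The share, 40.5%, was 33.3% with the mean of a gene's probe sets, 19.7% without those probe sets, 49.6% with the 90th percentile, 58.1% with the median of all probe sets as background and 44.3% where 3 arrays sufficed. The median SD was 0.171 with a pseudocount of 500 and 0.167 to 0.205 with 1 array left out, lowest without array 1. Mature adipocyte members above background numbered 1 without those probe sets, 8 with the 90th percentile and 9 with the median. Without those probe sets macrophage and keratinocyte counts were 0, pericyte 1, Schwann 1 and cartilage 0, and with the mean of probe sets Schwann was 1 and cartilage 0. With the 90th percentile macrophage, endothelium and keratinocyte counts were 2 and erythroid 1. With the median as background brown fat was 2, macrophage 5, endothelium 3, skeletal muscle 2, keratinocyte 2, Schwann 6, melanocyte 1, cartilage 2 and erythroid 2. Where 3 arrays sufficed brown fat was 1 and keratinocyte 2. With 1 array left out brown fat was 0 to 1 (1 without array 4) and keratinocyte 1 to 2 (2 without array 3). Over all settings, 189 of 2577 gene means, 54 of 333 list medians and 76 of 703 list counts moved by more than the SD between arrays or, for counts, by over 1.5 times. Quantile normalization moved none of these. The cause was not tested. No paired analysis was possible because 1 group is described and its results come from no test. Dim genes are limited by the background level, since 669 genes had means within 10 percent of it.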
